A study of Rattus norvegicus with 48 samples.

Results

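The 10 genes described here encode components, receptors and an inhibitor of the complement system: C1qa, C1qb, C1qc, C1r, C1s, C3, Cfb, C3ar1, C5ar1 and Serping1. They were taken by symbol from an RNA-seq table of 30211 genes. All 10 were in the table, and all 10 passed the filter on low values. The libraries came from primary mixed cortical cultures of rat fetuses (embryonic day 18, Sprague-Dawley), kept in vitro for 3 weeks and analysed in 48 libraries, 3 in each of 16 groups. Cultures were left untreated (Control) or received Tat, the transactivator protein of HIV-1 (recombinant, 6 ng/mL for 48 h), cocaine (25 µM for 24 h) or both (Tat-Cocaine). A small molecule was given for 48 h alone, with Tat or with Tat and cocaine in the other groups. The molecules were 4OI (4-octyl itaconate, a cell-permeable ester of itaconate, 250 µM), Amlexanox (an inhibitor of the kinases TBK1 and IKKε, 25 µM), Tazemetostat (an inhibitor of the histone methyltransferase EZH2, 3 µM) and Senicapoc (a blocker of the potassium channel KCa3.1, 1 µM). Group names join these words, so that Tat-Cocaine-4OI is a group given all of them. Tat was thus present as a protein added to the medium. Per the paper's methods, the itaconate stock was made in DMSO. The labels list no group given the solvent alone, so effects of 4OI and of its solvent cannot be told apart in any comparison below. Nothing in the labels says that the 3 libraries of a group came from separate animals, and p-values therefore measure the spread between these libraries, which may be technical.

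Complement is a cascade of blood and tissue proteins that marks surfaces for uptake by phagocytes and calls in immune cells. C1q, built from the chains of C1qa, C1qb and C1qc, recognizes a surface and carries the proteases C1r and C1s, which cut the next components and so start the classical pathway. All pathways meet at C3. Factor B, the product of Cfb, forms the C3-cutting enzyme of the alternative pathway, which amplifies the cascade. C3ar1 and C5ar1 are the receptors for the released peptides C3a and C5a, and Serping1, the C1 inhibitor, blocks C1r and C1s. In the brain C1q is made chiefly by microglia, the resident macrophages, while C3 is a known product of reactive astrocytes, and C1q and C3 are known for tagging synapses that microglia remove.

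Promoter sequences were at hand for 5 of the 10 genes (C1qa, C1qb, C1r, C3 and C3ar1) from RefSeq, build GRCr8, and not for C1qc, C1s, Cfb, C5ar1 and Serping1. The 250 bases before the annotated start are shown for 4 of them, since C1qa and C1qb on one side and C1r and C3 on the other stand for the 2 expression patterns described below. They are printed 5′ to 3′ on the strand of the gene, from chr5:154419934-154420183 (minus strand) for C1qa, chr5:154407828-154408077 (minus) for C1qb, chr4:159098763-159099012 (plus) for C1r and chr9:2201340-2201589 (minus) for C3. Capitals mark matches to the motifs searched.
C1qa: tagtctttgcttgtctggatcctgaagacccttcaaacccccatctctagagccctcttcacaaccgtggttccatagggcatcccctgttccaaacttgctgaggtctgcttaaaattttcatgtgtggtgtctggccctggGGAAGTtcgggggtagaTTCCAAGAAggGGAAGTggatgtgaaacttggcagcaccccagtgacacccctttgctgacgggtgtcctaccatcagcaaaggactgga
C1qb: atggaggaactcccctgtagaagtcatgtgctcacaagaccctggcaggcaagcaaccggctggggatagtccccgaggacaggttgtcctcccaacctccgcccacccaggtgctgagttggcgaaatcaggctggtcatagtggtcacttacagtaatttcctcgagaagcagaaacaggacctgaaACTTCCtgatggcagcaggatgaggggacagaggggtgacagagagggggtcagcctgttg
C1r: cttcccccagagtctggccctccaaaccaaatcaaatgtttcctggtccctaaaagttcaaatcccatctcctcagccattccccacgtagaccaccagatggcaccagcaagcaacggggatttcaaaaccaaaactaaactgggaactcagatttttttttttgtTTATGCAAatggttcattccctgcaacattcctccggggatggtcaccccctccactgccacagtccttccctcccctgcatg
C3: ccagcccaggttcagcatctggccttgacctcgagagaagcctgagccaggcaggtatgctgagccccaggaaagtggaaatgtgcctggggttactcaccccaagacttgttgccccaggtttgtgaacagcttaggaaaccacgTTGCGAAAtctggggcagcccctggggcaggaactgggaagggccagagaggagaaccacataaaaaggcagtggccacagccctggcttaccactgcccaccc
By these coordinates C1qa and C1qb lie close together on the minus strand of chromosome 5.

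Both strands of the 250 bases were searched for 5 motifs, chosen with the expression results known. The PU.1 core GGAAGT, of a factor of the myeloid lineage, was found at 2 places in C1qa, with first bases at -107 and -79 from the start, and at 1 in C1qb, on the opposite strand (ACTTCC as printed). It is in 19.2% of all 33465 promoters of this length. The C/EBP motif TTGCNNAA was found in C3, with its first base at -104, and in C1r on the opposite strand from -83 (TTATGCAA as printed), against 9.22% of all promoters. The STAT motif TTCNNNGAA, which reads alike on both strands, was in C1qa between the PU.1 cores, against 7.67% of all promoters, and overlapped neither. The interferon-stimulated response element (3.41% of all promoters) and the kappaB motif (3.54%) were in none of the 5, and the C3ar1 window held none of the motifs. These are matches of letters and not measured binding.

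The libraries held about 17515000 to 29057000 reads on genes, rounded and estimated from the value of 1 read in each. The lowest value of any of the 10 genes stood for 139 reads (C5ar1), so counting error was small beside the spread between libraries. The labels call the cells neurons. The neuronal markers Map2 and Snap25 were present in Control (500.1 to 639 CPM and 319 to 542 CPM), as were the astrocyte marker Gfap (4044 to 4756 CPM) and the microglia markers Csf1r (303 to 456 CPM) and Aif1 (42.1 to 122 CPM), and of 12 microglia markers only Siglech was at 0 in each library. The values thus come from mixed cultures, in which more cells of a type and more RNA per cell cannot be told apart. Replicate 2 was the highest of its group for C1qa in 15 of 16 groups, for Cfb in 15, for C3ar1 in 14 and for C1r in 7. The labels do not say whether libraries of one number shared a preparation.

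Levels are given as deposited, in CPM (a gene's reads scaled to the library's total, after TMM normalization by the authors), and are compared within a gene only, since they are not per length. By the ratio of highest to lowest library, Cfb had the widest range (53.2 to 12395 CPM, 233-fold) and Serping1 the next (98.7 to 4329 CPM, 43.9-fold). Over all groups Cfb lay at 910.2 to 12395 CPM in the 30 libraries with Tat and 53.2 to 447 CPM in the 18 without, and Serping1 at 699 to 4329 CPM in the 30 libraries with Tat and 98.7 to 574 CPM in the 18 without. For both, each of the 30 libraries with Tat was above each of the 18 without it. Of the libraries with Tat, 29 lay above each library without it for C1s, 28 for C1r, 26 for C3 and 19 for C5ar1. For C3ar1 7 did, and for C1qa, C1qb and C1qc 2, 2 and 3. C1qa was at 143 to 1469 CPM in the 30 libraries with Tat and 226 to 1222 CPM in the 18 without, so that its levels with and without Tat overlapped over most of the range. How many of all genes stand apart in this way was not counted. The 30 and the 18 libraries are not matched by group, and Tat against its own controls is given below.

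**Figure D1:**
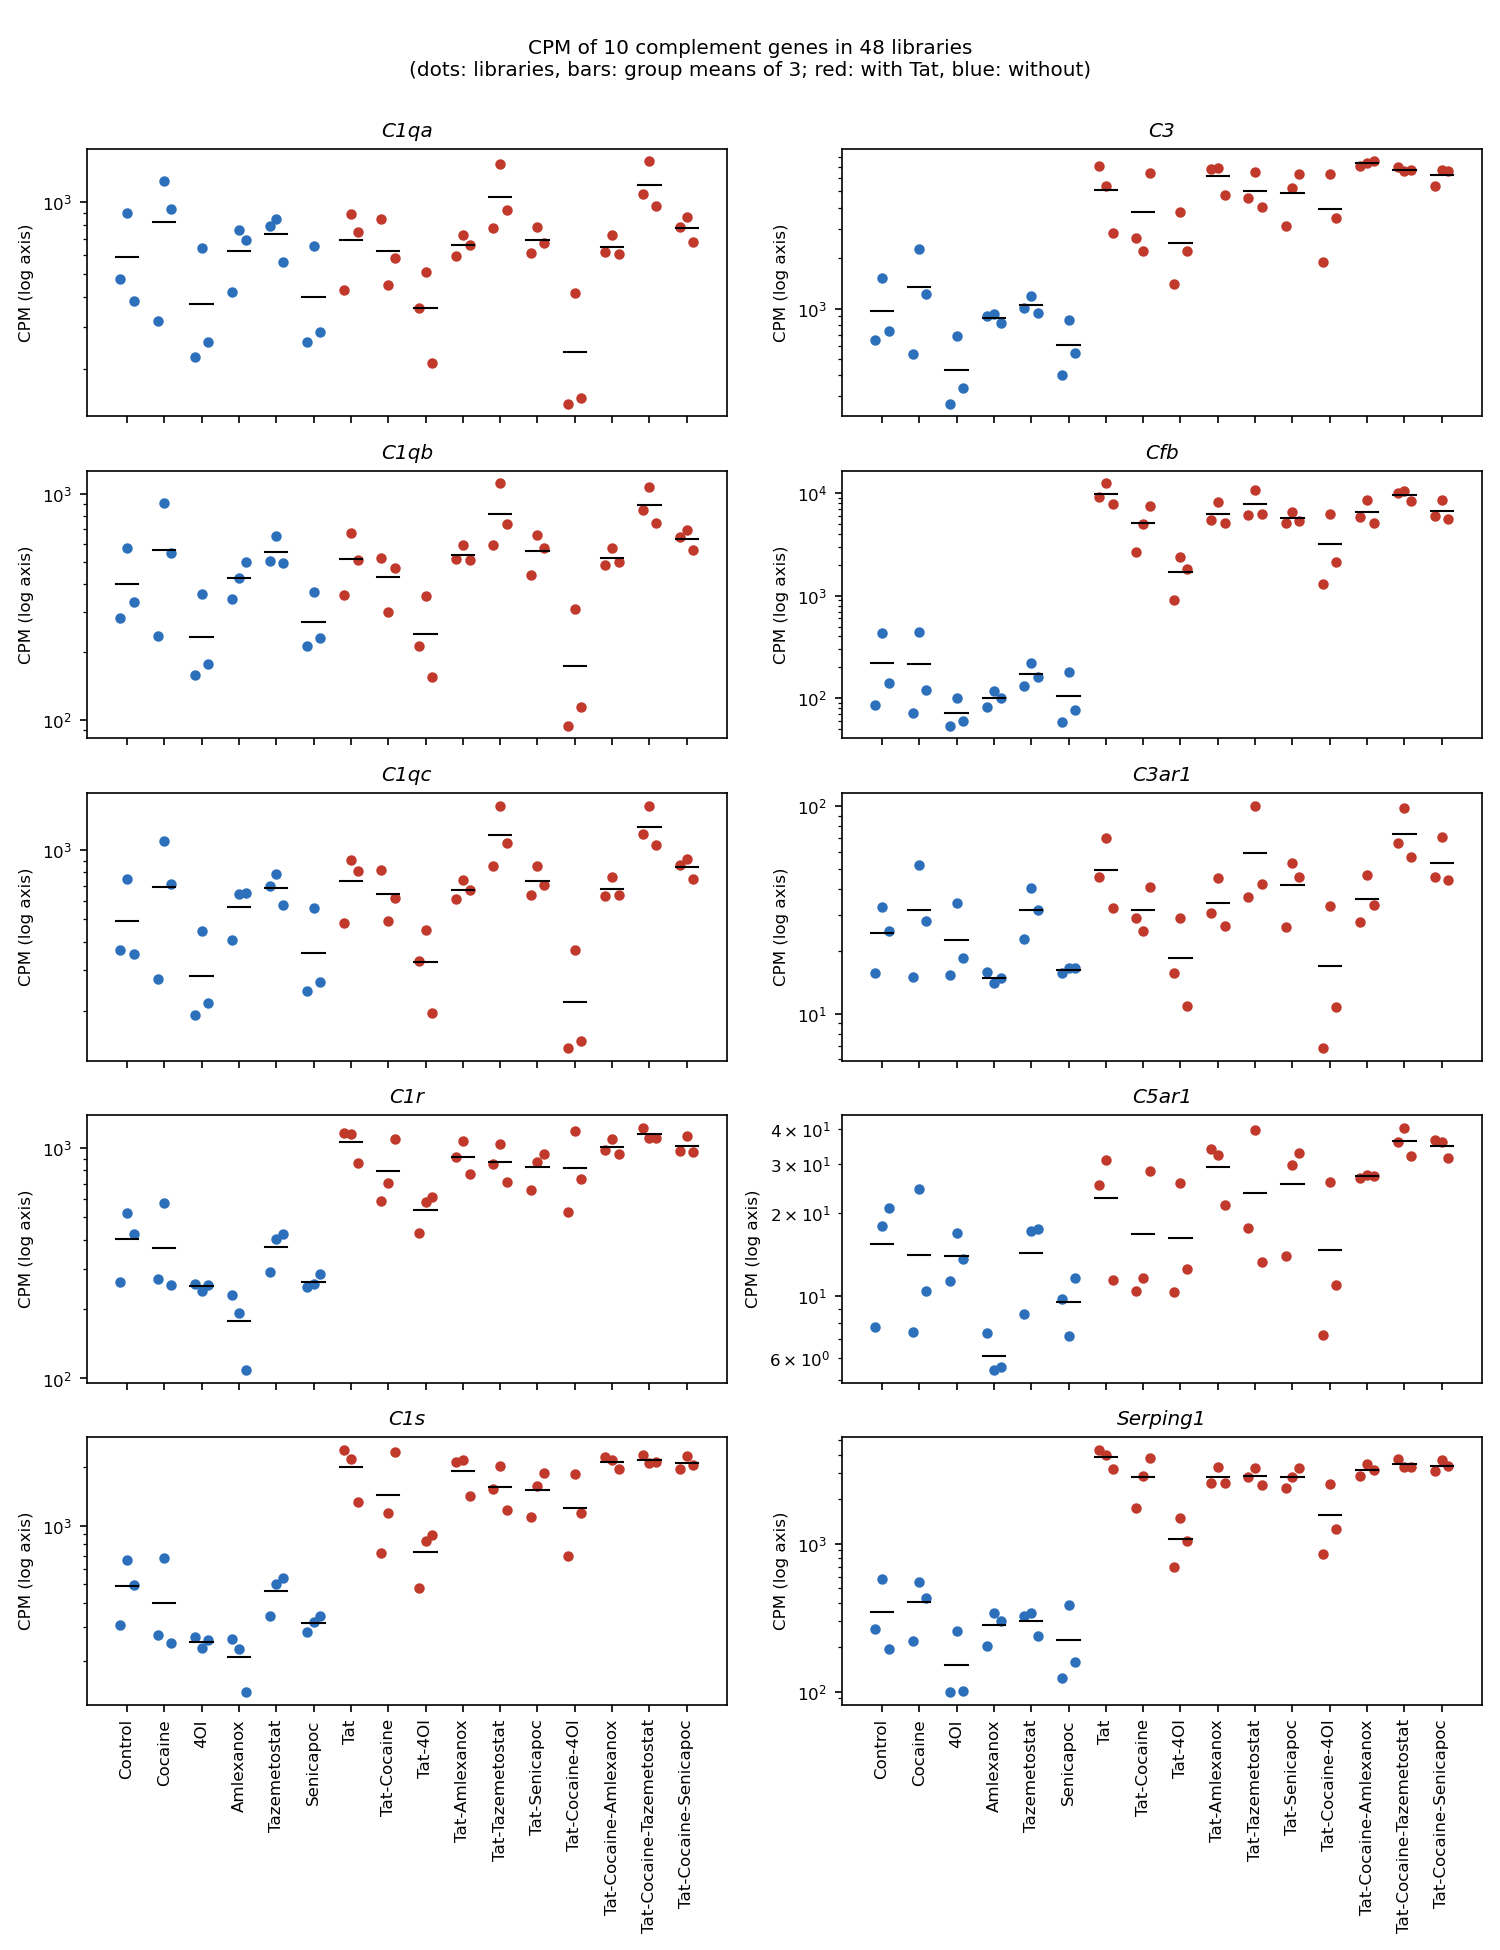
CPM of each of the 10 genes (log axis) in the 48 libraries by group. Dots are libraries, bars the means of 3, red groups received Tat. For Cfb and Serping1 the red dots lie above all blue ones, while for the 3 C1q genes the colours overlap over most of the range.

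The groups with the lowest and the highest mean differed between the genes. C1qa, C1qb and C1qc were lowest in Tat-Cocaine-4OI (236 ± 154 CPM, 173 ± 119.8 CPM and 218 ± 131 CPM, SD, n = 3) and highest in Tat-Cocaine-Tazemetostat (1168 ± 268 CPM, 886 ± 167 CPM and 1262 ± 257 CPM). Cfb and Serping1 were lowest in 4OI (71.3 ± 25.4 CPM and 152 ± 90.5 CPM) and highest in Tat (9824 ± 2332 CPM and 3842 ± 582 CPM). C3 was likewise lowest in 4OI (428 ± 222 CPM), and highest in Tat-Cocaine-Amlexanox (7339.8 ± 237 CPM). C1r, C1s, C3ar1 and C5ar1 had their lowest means in Amlexanox and their highest in Tat-Cocaine-Tazemetostat. Groups next to each other in the order overlapped in 15 of 15 pairs for C1qa, C1qb, C1qc, C3ar1 and C5ar1, and in 14 of 15 for the others. The 1 pair that stood apart was Control and Tat-4OI for Cfb, Cocaine and Tat-4OI for Serping1, Amlexanox and 4OI for C1r, 4OI and Senicapoc for C1s, and Tat-Cocaine-Tazemetostat and Tat-Cocaine-Amlexanox for C3.

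With Tat, 5 of the 10 genes rose over Control: Cfb, Serping1, C3, C1s and C1r, which stand for the alternative pathway, the inhibitor, the central component and the proteases of C1. C1qa, C1qb, C1qc, C3ar1 and C5ar1 did not pass the test (limma on log2(CPM + 0.5) over 15890 genes, Benjamini-Hochberg adjusted p under 0.05). Over all genes tested 14.6% were called higher. Cfb was at 85.8, 432 and 140.5 CPM in the Control libraries and at 9233, 12395 and 7843 CPM in the Tat libraries, a log2 fold change of 5.79 (SE 0.54, adjusted p = 1.06e-09). The Tat libraries were thus all far above those of Control, among which replicate 2 was the highest. Serping1 was at 263, 574 and 196 CPM in Control and at 4329, 3999.8 and 3197 CPM with Tat, a log2 fold change of 3.62 (SE 0.40, adjusted p = 3.14e-08). Its groups did not overlap either.

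C3 was at 648, 1526 and 739 CPM in Control and at 7117, 5384 and 2839.6 CPM with Tat, a log2 fold change of 2.41 (SE 0.45, adjusted p = 0.000188). The lowest Tat library, replicate 3, was still above the highest of Control. C1s was at 306, 665 and 495 CPM in Control and at 2471, 2212 and 1324 CPM with Tat, a log2 fold change of 2.05 (SE 0.37, adjusted p = 9.89e-05). C1r, its partner protease, was at 262, 520.4 and 423 CPM and at 1161, 1149 and 865 CPM, a log2 fold change of 1.44 (SE 0.28, adjusted p = 0.000301). Replicate 3 was the lowest Tat library for C3, C1s and C1r alike, and for all 3 genes the groups did not overlap. All 5 passed the test in each alternative run and without each of the 6 libraries.

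The recognition subunits did not pass the test. C1qa was at 475, 898 and 385 CPM in Control and at 429, 888 and 748 CPM with Tat, C1qb at 283, 575 and 333 CPM and 357, 671 and 506 CPM, and C1qc at 367, 749 and 353 CPM and 482, 907 and 809 CPM. The groups of each overlapped, with replicate 2 the highest in both. Their log2 fold changes were 0.26 (95% confidence interval -0.63 to 1.16), 0.39 (-0.41 to 1.18) and 0.62 (-0.20 to 1.44), so that no change and a rise of over 2-fold are both within each interval. C3ar1 was at 15.7, 32.7 and 25 CPM in Control and at 45.5, 70.3 and 32.5 CPM with Tat (log2 fold change 0.99, SE 0.45, adjusted p = 0.111). C5ar1 was at 7.71, 17.9 and 20.8 CPM and at 25.1, 31 and 11.4 CPM (log2 fold change 0.53, SE 0.46, adjusted p = 0.422). For both receptors the lowest Tat library lay within the range of Control.

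Markers of the cell types moved unevenly with Tat. Of 11 microglia markers tested, 3 rose (Aif1, Ptprc and Spi1) and 1 fell, with a median log2 fold change of 0.51. The summed level of the 12 was 819.7 to 1377 CPM in Control and 1040.5 to 1803 CPM with Tat. Of 6 markers of border macrophages 4 fell (Cd163, Lyve1, Cd209f and Pf4) and 1 rose (Ms4a7). The summed level of these 6 was 524 to 600.1 CPM in Control and 226 to 340.5 CPM with Tat. The 8 astrocyte markers summed to 9482 to 11632 CPM in Control and 6523 to 8881 CPM with Tat, and 3 of them fell (Gfap, S100b and Gja1). Of 3 granulocyte markers tested 2 rose (S100a8 and Camp), and the 6 listed summed to 0.192 to 1.32 CPM in Control and 6.29 to 12.4 CPM with Tat. No marker of neurons (8 tested), oligodendrocytes (5), their precursors (4), fibroblasts (4), endothelial cells (2) or hepatocytes (2), the main source of plasma complement, was called. The neuronal sum was 2468 to 3802 CPM in Control and 1307 to 2450.0 CPM with Tat. The part of these markers in the changes of C3, Cfb, Serping1, C1r and C1s was not tested.

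Tat was also compared with its own control in the presence of each compound. Of the 10 genes 5 were called higher with 4OI (3.08% of all genes), 7 with Amlexanox (22.6%), 5 with Tazemetostat (10.4%) and 7 with Senicapoc (10.8%). Cfb, Serping1, C3, C1s and C1r were among them each time, and C3ar1 and C5ar1 with Amlexanox and Senicapoc. Cfb rose by a log2 fold change of 4.51 ± 0.54 (SE) with 4OI, 5.94 ± 0.54 with Amlexanox, 5.48 ± 0.54 with Tazemetostat and 5.91 ± 0.54 with Senicapoc. C1s rose by 1.49, 3.22, 1.79 and 2.25 in the same order, and C1r by 1.09, 2.43, 1.23 and 1.63. C5ar1 was at 7.35, 5.39 and 5.57 CPM in Amlexanox and at 34, 32.1 and 21.3 CPM in Tat-Amlexanox, 2 groups that do not overlap, with a log2 fold change of 2.15 (SE 0.46, adjusted p = 0.000817). Without replicate 2 or 3 of Tat-4OI the 5 calls with 4OI became 3, since C1r (1.03, adjusted p = 0.105 without replicate 2) and C1s (1.37, adjusted p = 0.0941) were lost. C1r alone was lost without replicate 1 or 3 of 4OI (1.11, adjusted p = 0.0654 without replicate 1). The call of C3ar1 with Amlexanox (1.13, SE 0.45, adjusted p = 0.0446) was lost without any one library other than replicate 3 of Tat-Amlexanox. With Senicapoc those of C3ar1 (1.27, SE 0.45, adjusted p = 0.049) and C5ar1 (1.31, SE 0.46, adjusted p = 0.0466) were lost without any one library other than replicate 1 of Tat-Senicapoc, which left 5 calls each time, or 7 without replicate 2 of Senicapoc, where 2 of the C1q genes were called in their place. Of the 11 microglia markers 4 were higher with Tat in the presence of Amlexanox and 4 in that of Senicapoc (Tmem119, Aif1, Ptprc and Spi1 in both), 1 with Tazemetostat and 0 with 4OI. The microglia sum was 782 to 1010.3 CPM in Amlexanox, 968 to 1363 CPM in Tat-Amlexanox, 644 to 935 CPM in Senicapoc and 884 to 1631 CPM in Tat-Senicapoc. Of 8 neuronal markers 4 fell in Tat-Amlexanox against Amlexanox. The part of these markers in the receptor calls was not tested.

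**Figure D2:**
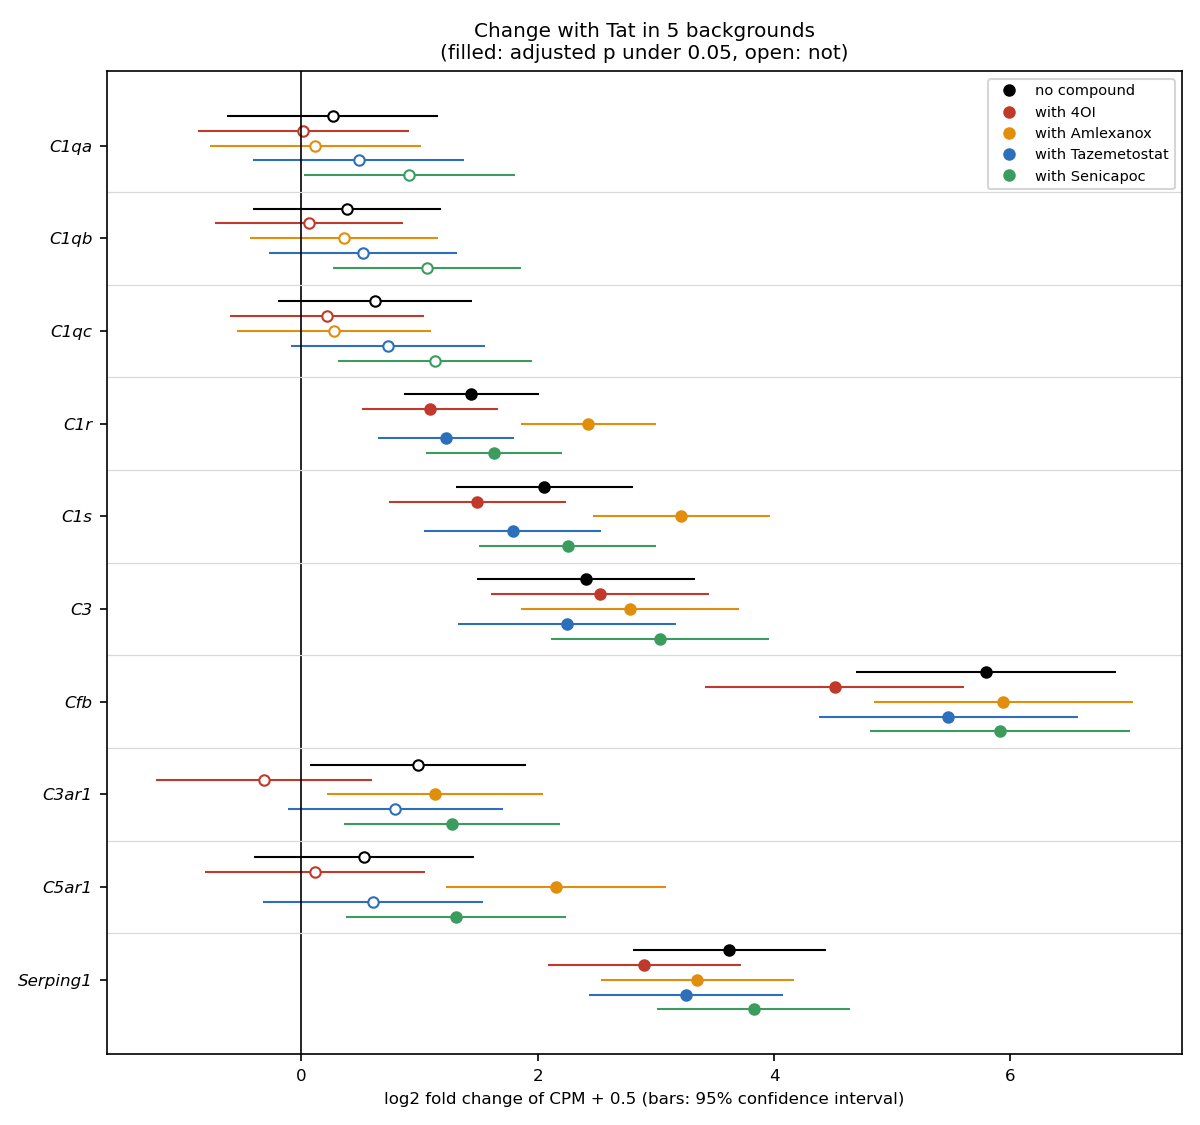
Log2 fold change with Tat for each gene, without a compound and with each of 4, from the fit to 48 libraries. Bars are 95% confidence intervals, and filled dots passed the adjusted p of 0.05. Cfb lies between 4.51 and 5.94 in the 5 backgrounds, and C1qa between 0.016 and 0.91 with open dots throughout.

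Pooled over the 5 backgrounds without cocaine (15 libraries with Tat against 15 without), 9 of the 10 genes were called higher, where 29.9% of all genes were. Cfb stood at a log2 fold change of 5.53 ± 0.24 (SE), Serping1 at 3.39 ± 0.18, C3 at 2.60 ± 0.20, C1s at 2.16 ± 0.17 and C1r at 1.56 ± 0.13. The receptors followed with 0.94 (SE 0.21, adjusted p = 0.000238) for C5ar1 and 0.77 (SE 0.20, adjusted p = 0.00154) for C3ar1. C1qc was at 0.60 (SE 0.18, adjusted p = 0.0057) and C1qb at 0.48 (SE 0.18, adjusted p = 0.02), while C1qa, at 0.36 (SE 0.20, adjusted p = 0.119), did not pass, though it did without replicate 2 of 4OI. The intervals of C1qa (-0.041 to 0.76) and Cfb (5.04 to 6.02) lay far apart. The median over the 11 microglia markers was 0.44 in this comparison, with 5 called higher and 1 lower. The pooled comparison contains the libraries of Tat and Control described above and is no independent test of them.

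None of the 10 genes was called with cocaine alone (limma, 0 called and 0 with an unadjusted p under 0.05, against 0.201% of all genes called). At the unadjusted level were 1996 of the 15890 genes tested. Their log2 fold changes ran from -0.38 (C1s) to 0.38 (C1qc). The Cocaine libraries were far apart for the C1q genes, C1qa being at 318, 1222 and 929.6 CPM. Against Control, Tat-Cocaine had the same 5 genes called higher as Tat (8.63% of all genes): Cfb at a log2 fold change of 4.74 (SE 0.54, adjusted p = 9.14e-08), Serping1 at 3.11 (SE 0.40, adjusted p = 1e-06), C3 at 1.89 (SE 0.45, adjusted p = 0.00372), C1s at 1.44 (SE 0.37, adjusted p = 0.00657) and C1r at 0.99 (SE 0.28, adjusted p = 0.0149). Both comparisons share the Control libraries. Replicate 3 was the highest of Tat-Cocaine for these genes, with Cfb at 2668, 5001 and 7549.8 CPM and C1s at 723, 1157 and 2413 CPM. Without it C3 (1.42, adjusted p = 0.0557), C1s (0.97, adjusted p = 0.0997) and C1r (0.73, adjusted p = 0.127) were no longer called, and without replicate 1 of Control C1s (1.14, adjusted p = 0.0624) and C1r (0.71, adjusted p = 0.132) were not.

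Tat-Cocaine was compared with Tat to see what differed with cocaine. The paper describes cocaine as added for 24 h after 48 h of Tat. If Tat alone was harvested at 48 h, cocaine and the later harvest cannot be told apart, here or in the pooled comparison. The 10 log2 fold changes were all below 0, from -1.05 (Cfb) to -0.13 (C1qa), but 0 were called and 0 had an unadjusted p under 0.05 in limma (0.0189% of all genes called, 1297 of 15890 at the unadjusted level). The Cfb libraries of Tat-Cocaine, 2668, 5001 and 7549.8 CPM, lay below those of Tat, with an interval of the difference of -2.15 to 0.047. Pooled over the 5 backgrounds with Tat (15 libraries with cocaine against 15), 0 of the 10 genes were called and 0 had an unadjusted p under 0.05. Over all genes 4.55% were called, and 3198 of 15890 were at the unadjusted level. The log2 fold changes of the 10 ran from -0.11 (C1qb) to 0.25 (C1s).

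4OI lowered 7 of the 10 genes in cultures given Tat: Cfb, Serping1, C1s, C3ar1, C1qc, C1qb and C1r. Over all genes 9.48% were called lower in this comparison. Cfb went from 9233, 12395 and 7843 CPM with Tat to 910.2, 2392 and 1800.3 CPM with Tat and 4OI, a log2 fold change of -2.61 (SE 0.54, adjusted p = 0.000987). Serping1 went from 4329, 3999.8 and 3197 CPM to 699, 1487 and 1045 CPM, a log2 fold change of -1.89 (SE 0.40, adjusted p = 0.00131). For both genes the 3 Tat-4OI libraries were still above the highest Control library, replicate 2, at 432 CPM for Cfb and 574 CPM for Serping1. C1s was at 475, 832 and 889 CPM in Tat-4OI (log2 fold change -1.45, SE 0.37, adjusted p = 0.00671), and C1r at 427, 584 and 612 CPM (-0.97, SE 0.28, adjusted p = 0.017).

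Of the genes that Tat alone had not moved past the threshold, C3ar1 was at 15.7, 29 and 10.8 CPM in Tat-4OI against 45.5, 70.3 and 32.5 CPM in Tat, a log2 fold change of -1.44 (SE 0.45, adjusted p = 0.0269). C1qb was at 212, 351 and 154 CPM against 357, 671 and 506 CPM (-1.13, SE 0.39, adjusted p = 0.0447), and C1qc at 328, 449 and 196 CPM against 482, 907 and 809 CPM (-1.20, SE 0.40, adjusted p = 0.038). The Tat-4OI libraries lay below the Tat libraries for each of these 3 genes. C1qa (-0.96, SE 0.44, adjusted p = 0.129), C3 (-1.07, SE 0.45, adjusted p = 0.0996) and C5ar1 (-0.46, SE 0.46, adjusted p = 0.505) were not called, and their groups overlapped. The calls rested on few libraries, since 5 were left without replicate 1 of Tat, 3 without replicate 2 and 6 without replicate 3, and 2 without replicate 1 of Tat-4OI, 8 without replicate 2 and 4 without replicate 3. Cfb and Serping1 were called each time. With the spread estimated from the 21 libraries of the groups given no compound other than 4OI, 2 were called, and in a fit to the 2 groups alone 4.

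In cultures given Tat and cocaine the genes lowered by 4OI were the 3 C1q genes, where 3.29% of all genes were called lower. C1qa went from 844, 448 and 579 CPM in Tat-Cocaine to 143, 414 and 151 CPM in Tat-Cocaine-4OI, a log2 fold change of -1.53 (SE 0.44, adjusted p = 0.0272). C1qb went from 518, 300.4 and 469 CPM to 93.7, 311 and 114 CPM (-1.48, SE 0.39, adjusted p = 0.0157), and C1qc from 820.3, 489.5 and 621 CPM to 137, 368 and 147 CPM (-1.69, SE 0.40, adjusted p = 0.00714). Replicate 2 was the highest Tat-Cocaine-4OI library and the lowest Tat-Cocaine library, and for C1qb alone the groups overlapped. C1r (0.0095, interval -0.56 to 0.58), C1s (-0.15, -0.90 to 0.60) and C3 (0.059, -0.86 to 0.98) were not called, nor were Cfb (-0.85, SE 0.54, adjusted p = 0.383), Serping1 (-0.93, SE 0.40, adjusted p = 0.166), C3ar1 (-1.16, SE 0.45, adjusted p = 0.113) and C5ar1 (-0.24). The signs of C1r and C3 turned under quantile normalization, and that of C1r under median-ratio rescaling. Without replicate 1 or 3 of Tat-Cocaine-4OI 0 calls were left, without replicate 1 of Tat-Cocaine 1 and without its replicate 3 2, and without replicate 2 of Tat-Cocaine-4OI there were 5. In the fit to 21 libraries and in that to the 2 groups alone 0 were called.

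4OI alone left all 10 log2 fold changes below 0, from -1.33 (Cfb) to -0.048 (C5ar1), but 0 were called, with 6 at an unadjusted p under 0.05 in limma and 3.15% of all genes called. At that unadjusted level were 2082 of the 15890 genes tested, 711 of them lower. C1s was at 265, 232 and 257 CPM and C1r at 258, 240.1 and 255 CPM, below each Control library, with adjusted p = 0.256 and 0.321. Cfb was at 53.2, 100.3 and 60.5 CPM (log2 fold change -1.33, SE 0.54, adjusted p = 0.238) and Serping1 at 98.7, 257 and 101 CPM (-1.17, SE 0.40, adjusted p = 0.126). For this comparison libraries of one number deviated together, and with the replicate number as a block Cfb (adjusted p = 0.0207) and Serping1 (adjusted p = 0.019) were called. Without replicate 2 of 4OI 1 gene, Serping1, was called. Pooled over Control, Tat and Tat-Cocaine (9 libraries with 4OI against 9, a comparison chosen after seeing the data), 9 of the 10 genes were lower and C5ar1 was not (-0.25, SE 0.26, adjusted p = 0.565), where 11.8% of all genes were. Cfb was at -1.60 (SE 0.31, adjusted p = 0.000233), Serping1 at -1.33 (SE 0.23, adjusted p = 5.35e-05) and C1qc at -1.23 (SE 0.23, adjusted p = 0.000158) in that comparison. The call of C3 (-0.74, SE 0.26, adjusted p = 0.0388) was lost without any one of replicates 1 and 2 of Tat, replicate 2 of Control, replicate 3 of Tat-Cocaine, or replicates 1 and 3 of 4OI, Tat-4OI or Tat-Cocaine-4OI. Without replicate 1 of Tat-Cocaine-4OI the call of C1r was lost too.

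Markers of microglia, border macrophages, granulocytes and fibroblasts were also among the genes called lower with 4OI. In Tat-4OI against Tat the median log2 fold change over the microglia markers was -0.89, with 2 of 11 called lower (Csf1r and Spi1), and over the border macrophage markers it was -1.68, with 4 of 6. In Tat-Cocaine-4OI against Tat-Cocaine the medians were -0.71 (2 of 11 lower, Csf1r and Cd68) and -2.15 (4 of 6). The microglia sum was 1040.5 to 1803 CPM in Tat, 461 to 968 CPM in Tat-4OI, 686 to 1168 CPM in Tat-Cocaine and 337 to 1017 CPM in Tat-Cocaine-4OI. The border macrophage sum was 226 to 340.5 CPM, 48.3 to 209 CPM, 221 to 465 CPM and 36.7 to 164 CPM in the same order. The granulocyte sum was 6.29 to 12.4 CPM in Tat and 1.18 to 4.41 CPM in Tat-4OI. Of 4 fibroblast markers tested 1 was lower in Tat-4OI than in Tat (Pdgfrb, median -0.64) and 2 in Tat-Cocaine-4OI than in Tat-Cocaine (Dcn and Lum, median -1.26). The fibroblast sum was 156 to 345 CPM in Tat, 75.7 to 160.4 CPM in Tat-4OI, 220.2 to 330.5 CPM in Tat-Cocaine and 83 to 342 CPM in Tat-Cocaine-4OI. In contrast, 4 of 8 astrocyte markers were higher in Tat-Cocaine-4OI than in Tat-Cocaine. The part of these markers in the lower levels of the complement genes was not tested.

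**Figure D3:**
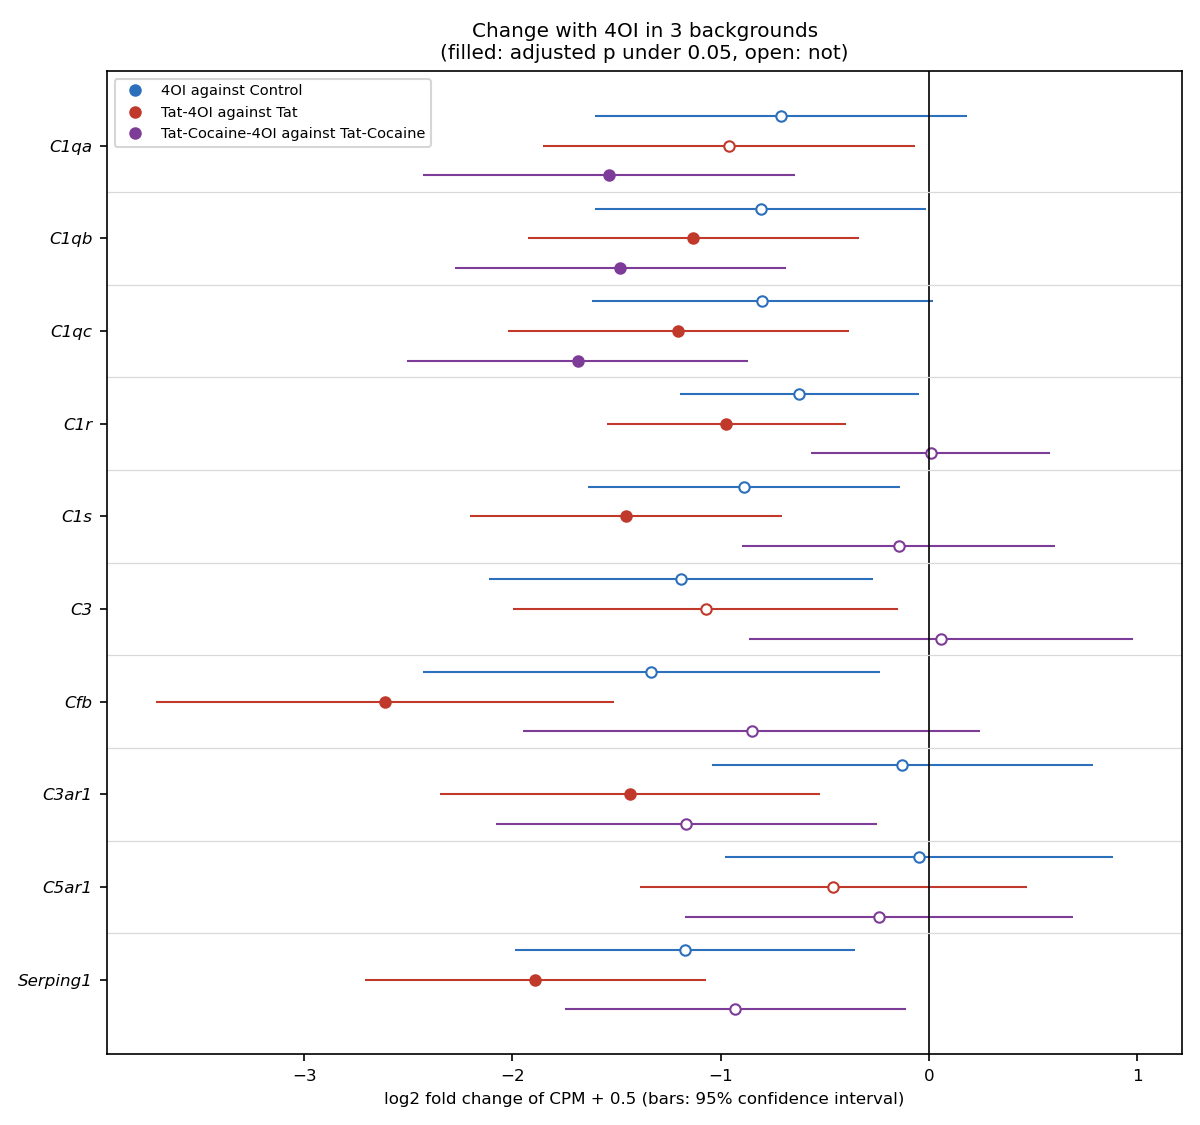
Log2 fold change with 4OI for each gene against Control, Tat and Tat-Cocaine, from the fit to 48 libraries. Bars are 95% confidence intervals, and filled dots passed the adjusted p of 0.05. Cfb lies lowest in cultures given Tat (-2.61), and the C1q genes lie lowest in those given Tat and cocaine (-1.69 for C1qc), where C1r (0.0095) and C3 (0.059) lie near 0, with signs that turn under quantile normalization.

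Amlexanox alone lowered C1r and C1s, where 7.6% of all genes were called lower. C1r was at 229, 193 and 108 CPM, a log2 fold change from Control of -1.20 (SE 0.28, adjusted p = 0.00579), and C1s at 259, 231 and 137 CPM, one of -1.20 (SE 0.37, adjusted p = 0.0302). All Amlexanox libraries lay below those of Control, and replicate 3 was the lowest. C5ar1, at 7.35, 5.39 and 5.57 CPM, was below each Control library but not called (-1.17, SE 0.46, adjusted p = 0.0917). The C1q genes stood at 0.14, 0.14 and 0.27, and none of the 11 microglia markers was called, while 5 of 8 astrocyte markers were lower. The astrocyte sum was 5445 to 12966 CPM in Amlexanox against 9482 to 11632 CPM in Control, 2 ranges that overlap. The part of these markers in the levels of C1r and C1s was not tested. Without replicate 3 of Amlexanox neither protease was called (C1r -0.88, adjusted p = 0.137), without replicate 2 or 3 of Control only C1r was, and without replicate 1 of Control 3 genes were, C5ar1 being the third. In a fit to the 2 groups alone 0 were. With Tat (0.837% of all genes called) and with Tat and cocaine (0.925%) none of the 10 was called for Amlexanox (limma, 0 and 2 with an unadjusted p under 0.05). At that unadjusted level were 1988 and 2829 of the 15890 genes tested. Without replicate 3 of Tat-Cocaine 2 were called in the latter. Pooled over the 3 backgrounds 0 were called and 1 had an unadjusted p under 0.05 (7.99% of all genes called, 3568 of 15890 at the unadjusted level).

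Tazemetostat raised 3 of the 10 genes in cultures given Tat and cocaine, both receptors and C1qb, where 15.2% of all genes were called higher. C5ar1 went from 10.4, 11.7 and 28.3 CPM to 35.9, 40.5 and 32.1 CPM, a log2 fold change of 1.22 (SE 0.46, adjusted p = 0.0433). C3ar1 went from 28.9, 25 and 41 CPM to 66.3, 98.6 and 56.9 CPM (1.20, SE 0.45, adjusted p = 0.0431), and C1qb from 518, 300.4 and 469 CPM to 842, 1071 and 745 CPM (1.07, SE 0.39, adjusted p = 0.0399). The groups of these 3 genes did not overlap. C1qc (0.98, SE 0.40, adjusted p = 0.0618) and C1qa (0.93, SE 0.44, adjusted p = 0.102) were not called. Their groups did not overlap either, but this held for 8 of the 10 genes, and its share over all genes was not counted. All 10 log2 fold changes were above 0, and 8 had an unadjusted p under 0.05 in limma. Of the 15890 genes tested, 3653 were higher at that level. In the same comparison 7 of 11 microglia markers rose, with a median log2 fold change of 1.31 and a microglia sum of 1732 to 2783 CPM against 686 to 1168 CPM. Of 8 neuronal markers 6 fell, the sum being 884 to 1345 CPM against 1942 to 2578 CPM. Of the markers tested, 2 of 5 of oligodendrocytes fell (median -2.83), 2 of 4 of their precursors (-0.83) and 2 of 4 of fibroblasts (-1.07). The part of these shifts in the receptor levels was not tested. No call was left without replicate 1 or 2 of either group or without the filter on low values, 2 were left without replicate 3 of Tat-Cocaine-Tazemetostat, and 6 genes were called without replicate 3 of Tat-Cocaine. For Tazemetostat alone and with Tat none of the 10 was called (limma, 0 with an unadjusted p under 0.05 in either), where 0% and 0% of all genes were called. At the unadjusted level were 576 and 851 of the 15890 genes tested. Pooled over the 3 backgrounds, C1qb (0.75, SE 0.23, adjusted p = 0.0313) and C1qc (0.74, SE 0.23, adjusted p = 0.0373) were higher (6.75% of all genes), a comparison chosen after seeing the data. Without any one of 7 libraries neither was called, these being replicates 1 and 3 of Tat, replicate 1 of Control, replicate 2 of Tat-Cocaine and replicate 2 of each of the 3 groups with Tazemetostat. Without replicate 3 of Control, replicate 3 of Tazemetostat or replicate 1 of Tat-Cocaine-Tazemetostat 1 was called.

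For Senicapoc none of the 10 genes was called alone (0% of all genes called), with Tat (0.409%) or with Tat and cocaine (0.0441%). In limma 0, 0 and 1 of them had an unadjusted p under 0.05. At that level were 1378, 2909 and 2466 of the 15890 genes tested. Alone, its log2 fold changes were all below 0, from -0.89 (Cfb) to -0.47 (C1qc), and with Tat and cocaine all above 0, from 0.33 (Serping1) to 1.17 (C5ar1). C5ar1 was at 36.7, 36 and 31.6 CPM in Tat-Cocaine-Senicapoc, above each Tat-Cocaine library, with adjusted p = 0.225 in limma. Without replicate 3 of Tat-Cocaine 1 gene was called. Pooled over the 3 backgrounds 0 were called and 0 had an unadjusted p under 0.05 (1.16% of all genes called, 2852 of 15890 at the unadjusted level).

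Whether a compound changed the response to Tat was tested as a difference of differences. None of the 10 genes was called for 4OI (0.497% of all genes called), Amlexanox (1.84%), Tazemetostat (0%) or Senicapoc (0%), and 1, 3, 0 and 0 had an unadjusted p under 0.05 in limma. Over all 15890 genes tested 1896, 2895, 271 and 762 were at that level. For 4OI the difference was -1.28 (SE 0.77, adjusted p = 0.5) on the log2 scale for Cfb and -1.31 (SE 0.64, adjusted p = 0.416) for C3ar1. The interval of Cfb (-2.83 to 0.27) holds both no difference and a response reduced several-fold. For Amlexanox it was 1.62 (SE 0.65, adjusted p = 0.16) for C5ar1, 0.99 (SE 0.40, adjusted p = 0.165) for C1r and 1.16 (SE 0.52, adjusted p = 0.222) for C1s. The effect of a compound in Tat-Cocaine was compared with that in Tat in the same way. For 4OI, Amlexanox, Tazemetostat and Senicapoc 0%, 0%, 0% and 0.0315% of all genes were called, none of them among the 10, of which 3, 0, 2 and 1 had an unadjusted p under 0.05. Over all 15890 genes tested 2128, 587, 2373 and 2643 were at that level. C1r, lower with 4OI in cultures given Tat and near 0 in those given Tat and cocaine, differed by 0.98 (SE 0.40, adjusted p = 0.37). The effects of 4OI in the 2 backgrounds are thus not shown to differ for any of the 10 genes.

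Of 43 other genes of the complement pathway 41 were in the table and 30 were tested. With Tat 8 rose and 5 fell (14.6% and 6.7% of all genes did), with a median log2 fold change of 0.01 against 0.01 over all genes. Of the components, C2, the classical counterpart of factor B, rose from 121 to 411 CPM (log2 fold change 1.79, SE 0.36, adjusted p = 0.000344), and C4b from 3.77 to 10.8 CPM (1.48, SE 0.39, adjusted p = 0.00539). C4b has a close copy, C4a, and reads may be split between them. The subunits of the complement receptors CR3 and CR4 rose, Itgax by 3.17 (SE 0.46, adjusted p = 4.85e-06), Itgb2 by 1.78 (SE 0.44, adjusted p = 0.00363) and Itgam by 1.62 (SE 0.39, adjusted p = 0.00269). Clusterin (Clu), an inhibitor of the terminal complex, rose from 2412 to 7482 CPM (1.63, SE 0.23, adjusted p = 2.05e-06). Factor I (Cfi), which inactivates C3b, rose from 0.899 to 3.46 CPM (1.45, SE 0.44, adjusted p = 0.0166), and Cd93 from 1.03 to 3.52 CPM (1.37, SE 0.41, adjusted p = 0.0145).

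Among the genes that fell with Tat, Fcna, a lectin-pathway ficolin, went from 95.9 to 21 CPM (log2 fold change -2.26, SE 0.41, adjusted p = 9.88e-05) and Cfd, the protease that activates factor B, from 48.9 to 16 CPM (-1.60, SE 0.33, adjusted p = 0.000505). Cd59, which blocks the membrane attack complex, went from 172 to 88.3 CPM (-0.94, SE 0.14, adjusted p = 9.98e-06). Csmd1 (-0.55) and Colec11 (-0.73) fell by less. In Tat-4OI against Tat (9.48% of all genes lower and 6.1% higher) 5 of the 30 were lower, C4b (-2.23, SE 0.39, adjusted p = 0.000138), Itgam (-1.20), C2 (-1.17), C5ar2 (-1.16) and Clu (-0.98), and Cd59 was higher (0.81, SE 0.14, adjusted p = 0.000158). In Tat-Cocaine-4OI against Tat-Cocaine (3.29% lower and 4.07% higher) Fcna (-2.94, SE 0.41, adjusted p = 5.9e-06), Cfd (-1.96), Colec12 (-1.70), C4b (-1.22) and C5ar2 (-1.19) were lower, and Cd59 (0.75) higher. The border macrophage markers given above were lower in the same comparisons as Fcna and Cfd, and their part in this was not tested. In Tat-Cocaine against Control 5 of the 30 were higher and 3 lower, against 8.63% and 6.3% of all genes. In Tat-Cocaine-Tazemetostat against Tat-Cocaine 5 were higher, among them Cfp (properdin, 1.77, SE 0.53, adjusted p = 0.0168), and 4 lower, shares near those of all genes (15.2% higher and 13.4% lower). With Amlexanox alone 1 was higher, Cd55 (0.65, SE 0.21, adjusted p = 0.0407), a share near that of all genes (3.75%).

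Over the 16 group means of log2(CPM + 0.5) the genes fell into 2 sets. The 3 C1q genes followed each other (Pearson r 0.985 to 0.993), as did C1r, C1s, C3, Cfb and Serping1 (0.946 to 0.993), while r between the sets was 0.359 to 0.564. C3ar1 was nearer to the C1q genes (0.848 to 0.886) than to the other set (0.662 to 0.714), and C5ar1 the other way round (0.518 to 0.592 and 0.787 to 0.876). These are descriptions over 16 groups, 10 of which were given Tat, and groups with the same agents are not independent. Of all other genes tested, those most like C1qa were Cd68 (0.969), Adap2 (0.967) and Tyrobp (0.962), and those most like C1qc Tyrobp (0.976), Tent5c (0.97) and Ctss (0.967). For C1qb they were AABR07006269.1 (0.967), Tent5c (0.966) and Rbm47 (0.964). For C1r they were Plpp1 (0.988), Clu (0.981) and Synpo2 (0.981), for C1s Nhs (0.985), Plpp1 (0.984) and Hpx (0.982) and for C3 Steap4 (0.983), Cp (0.981) and Tf (0.979). Cfb was most like Zc3h12a (0.994), Pla2r1 (0.993) and Rab32 (0.991), and Serping1 like Nfkbiz (0.994), Marchf3 (0.993) and Birc3 (0.991). For C3ar1 they were Tmem144 (0.985), Traf3ip3 (0.978) and Il10ra (0.977) and for C5ar1 Zfp407 (0.964), LOC685048 (0.955) and Mapk14 (0.953).

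**Figure D4:**
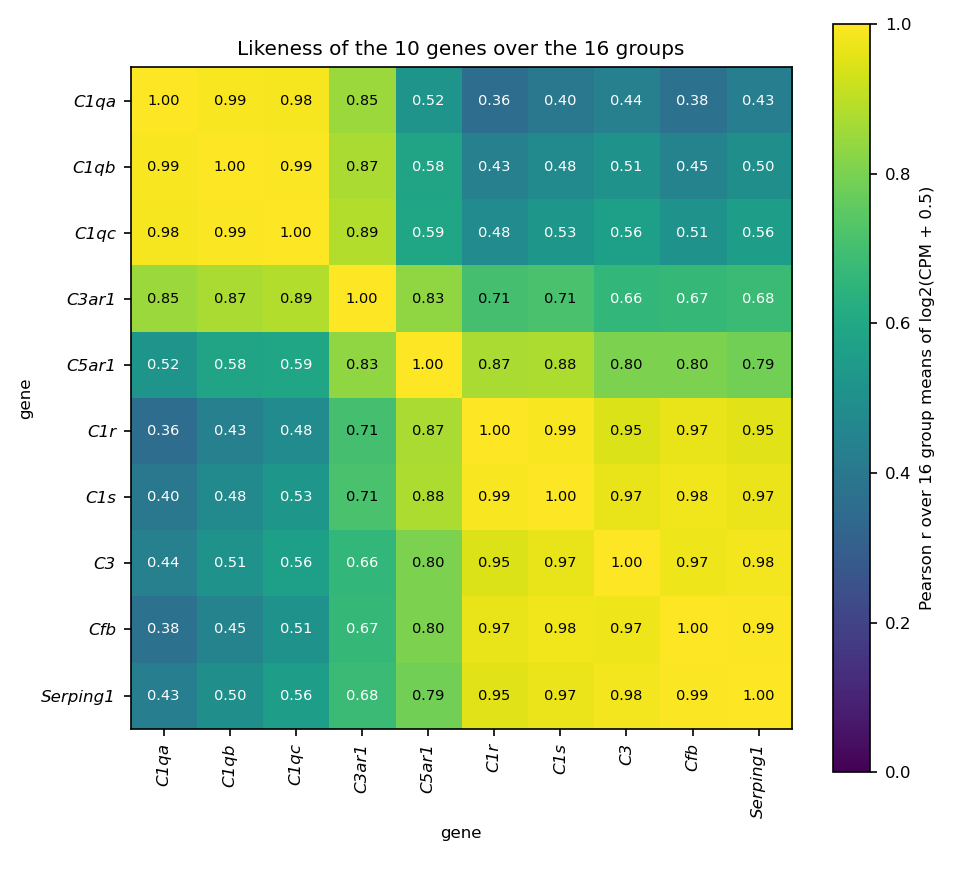
Pearson r between the 10 genes over the 16 group means of log2(CPM + 0.5), as colour and number. High r is seen among the C1q genes (0.985 to 0.993) and among C1r, C1s, C3, Cfb and Serping1 (0.946 to 0.993), and lower r between these sets (0.359 to 0.564), with the receptors in between.

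Set against the mean log2 level of the 11 microglia markers of the same library, C1qa values with and without Tat overlapped. For Cfb the libraries with Tat formed a band of their own above those without it. The lowest Cfb value with Tat, 910.2 CPM in Tat-4OI, was above the highest without Tat, 447 CPM in Cocaine. The part of the microglia markers in the level of either gene was not tested.

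**Figure D5:**
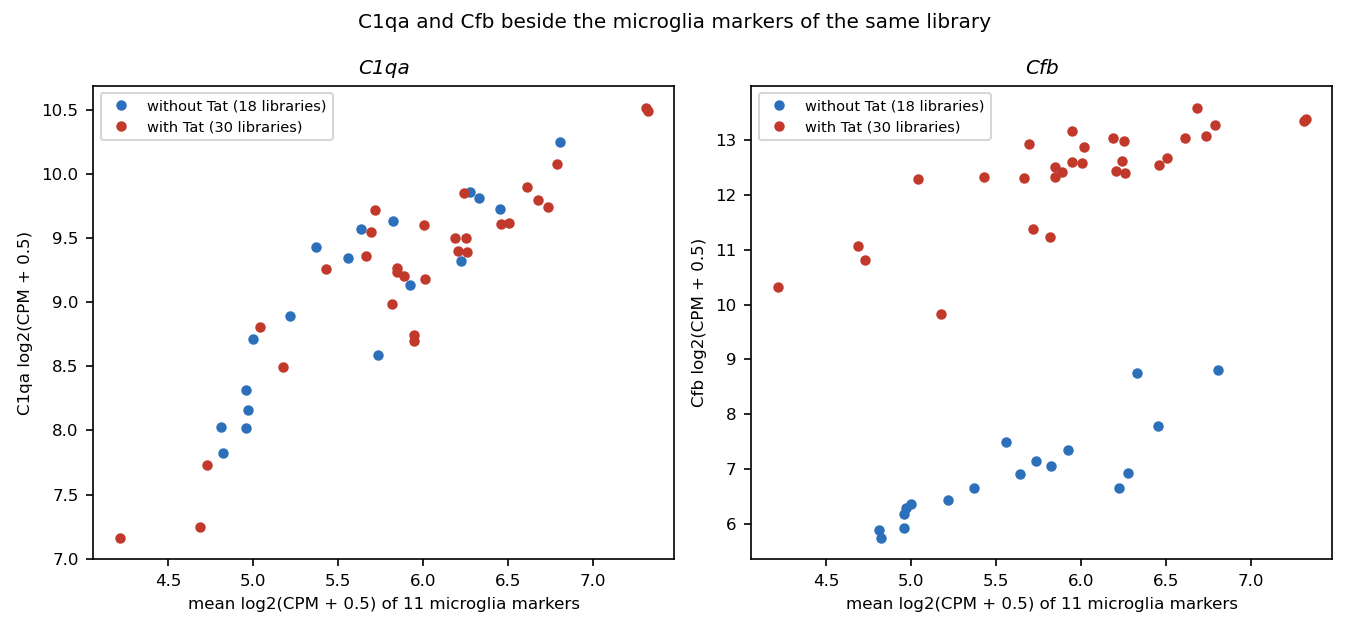
Log2(CPM + 0.5) of C1qa (left) and Cfb (right) against the mean log2(CPM + 0.5) of 11 microglia markers in each of 48 libraries, red with Tat and blue without. For C1qa the colours overlap, and for Cfb the 30 red libraries lie above the 18 blue ones.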

How the data were processed

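RNA-seq libraries (polyA RNA, directional, paired-end) were 48 in number, 3 in each of 16 groups taken from the labels. Per the submitters' processing notes and methods, reads were trimmed with Trim Galore 0.4.5, aligned with STAR 2.7.2 and counted per gene with featureCounts (Subread 1.5.3). The genome build differs between the sources, and no coordinate of the deposited table was used. The deposited signal values are CPM, reads per gene scaled to the library size after TMM normalization by the authors in edgeR. Library sums were 930399 to 1046890, and 1 read was worth 0.0334 to 0.0583 CPM, with 85.1 to 87.2% of low values within 0.02 of a whole read, too few for a count test.

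The 15890 of 30211 genes that reached 0.5 CPM in 3 or more libraries entered 1 limma fit (version 3.58.1, R 4.3.3) to log2(CPM + 0.5) of all 48 libraries with 16 group means, eBayes with a trend and Benjamini-Hochberg adjustment over all genes tested. Fold changes are on that scale, which understates those of low genes. The p-values cover the spread between libraries, which may be technical. The 34 comparisons, among them 8 differences of differences, share control libraries. Where groups are said to overlap or not, the share of all genes that did so was not counted. The fit was first tested on simulated data. The 10 genes, the 43 other complement genes and the marker lists were chosen with earlier results of these data known. All 10 are named. Other complement genes are named where they passed the test and some are not reported here, and as most alike the 3 genes with the highest Pearson r over 16 group means. Compounds pooled over 3 backgrounds were added after seeing the data. Alternatives were a pseudocount of 0.1 or 1 CPM, no filter or 2 CPM, median-ratio and quantile scaling, fits to 21 libraries or to the compared groups, no trend, a replicate block and each library left out.

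Replicate numbers were taken as pairing libraries where deviations from the group means of libraries of the same number had a correlation over 0.1 in every pair. This held in 6 of 20 comparisons (Tat-Cocaine, 4OI, Tazemetostat and Senicapoc against Control, and Tat-Amlexanox against Tat and against Amlexanox), with r from 0.142 to 0.814, and not in the other 14.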

Additional observations from a re-analysis of the deposited data

How the results depend on the processing

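None of the 69 called values of the 10 genes changed sign in any alternative (pseudocount, filter, scaling, samples fitted, trend, replicate block, libraries left out), and of their recomputed values 1275 passed the threshold and 142 missed it. The counts of genes called moved as follows, and where no other reason is plain from fewer libraries or genes the cause was not tested. The share of all genes called in each refit, here and above, was not computed. These counts therefore do not set the 10 genes apart from all others. A fit to 21 libraries gave 2 for Tat-Cocaine against Control, 2 for Tat-4OI against Tat, 0 for Tat-Cocaine-4OI against Tat-Cocaine and 3 for Tat-4OI against 4OI. A fit to the compared groups alone gave 2 for Tat-Cocaine against Control, 0 for Amlexanox, 4 for Tat-4OI against Tat, 0 for Tat-Cocaine-4OI and 5 for Tat-Cocaine-Tazemetostat. With no filter Tat-Cocaine-Tazemetostat gave 0 and Tazemetostat pooled 1, and quantile normalization gave 1 for the latter. With libraries left out in turn, 2 to 5 genes were called for Tat-Cocaine against Control, 0 to 1 for 4OI, 0 to 3 for Amlexanox, 2 to 8 for Tat-4OI against Tat, 0 to 5 for Tat-Cocaine-4OI, 0 to 6 for Tat-Cocaine-Tazemetostat, 0 to 2 for Tat-Cocaine-Amlexanox, 0 to 1 for Tat-Cocaine-Senicapoc, 3 to 5 for Tat-4OI against 4OI and 0 to 2 for Tazemetostat pooled.

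Signs turned only for uncalled values. Quantile normalization gave log2 fold changes of 0.029 for C3 with Amlexanox alone, and of -0.19 for C1r and -0.12 for C3 in Tat-Cocaine-4OI, where median-ratio rescaling gave -0.011 for C1r. With libraries left out, Tat-Cocaine against Control ran from -0.12 to 0.50 for C1qa, -0.066 to 0.45 for C1qb and -0.36 to 0.35 for C5ar1. 4OI alone ran from -0.46 to 0.11 for C3ar1 and -0.47 to 0.22 for C5ar1. Amlexanox alone ran from -0.11 to 0.50 for C1qa, -0.068 to 0.44 for C1qb, -0.27 to 0.35 for C3 and -0.50 to 0.28 for Serping1. Tat-Cocaine-4OI ran from -0.30 to 0.29 for C1r, -0.55 to 0.32 for C1s, -0.37 to 0.53 for C3 and -0.73 to 0.20 for C5ar1.

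With the replicate number as a block, 4OI against Control had 2 genes called, and of the 6 comparisons whose libraries were paired by number no other changed a call. In comparisons outside these 6, the block gave 5 for Tat-Cocaine-4OI, 7 for Tat-Cocaine-Tazemetostat and 4 for Tazemetostat pooled, and moved the other counts by less than 1.5 times. The share of all genes called under the block was not computed. For C1qa and for Cfb replicate 2 was the highest of its group in 15 of 16 groups, those of other comparisons included. The depth of the libraries limits these results less than the spread between them.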
